A study of Homo sapiens with 6 samples.

Results

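The genes described here encode 10 cell-surface ectoenzymes, chosen by symbol: MME, ECE1, ECE2, ANPEP, DPP4, CPM, NT5E, ENPP1, FAP and LNPEP. Of these 10, 9 had a row among the 18539 genes of the table and all 9 passed the filter on low values. ECE2 was not analysed here. The set was put together with the change of MME between the groups already known, so the values of its members in that comparison are a description and no p-value is given for them. CPM below is always the gene of carboxypeptidase M.

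The cells were A375, an established line from a human malignant melanoma that carries an activating BRAF mutation. They had been infected, with polybrene at 8 µg/ml, with a pLKO.1 lentivirus carrying a short hairpin RNA against MMP9 (shMMP9, 3 libraries) or a control hairpin (shControl, 3 libraries). Selection in puromycin at 2 µg/ml followed for 2 weeks, and both groups were grown in DMEM with fetal bovine serum. The labels give 1 hairpin sequence for MMP9 and none for the control, so shMMP9 stands for a single hairpin. Nothing in the labels makes the replicates separate cultures, and the p-values below then measure only how far these libraries spread, which may be technical.

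Ectoenzymes are anchored in the plasma membrane with their catalytic domain outside the cell. The peptidases among them trim or destroy peptide hormones, chemokines and kinins at the cell surface, and the nucleotide-cleaving ones act on extracellular ATP and its products. Neprilysin, encoded by MME and also known as the leukocyte antigen CD10, is a zinc metallopeptidase that inactivates substance P, endothelins, natriuretic peptides and amyloid-beta peptides, and it has been studied as a marker of melanoma progression.

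The listed genes held an estimated 21854075 to 25895629 reads in shMMP9 libraries and 24319899 to 28005449 in shControl libraries. A level below is a scaled count, with the upper quartile set equal in all libraries, and a log2 fold change is the mean of log2(scaled count + 1) in shMMP9 minus that in shControl. MMP9 averaged 15.9 ± 1.31 in shMMP9 and 26.4 ± 2.18 in shControl (SD, n = 3 each), and its log2 fold change was -0.69 (SE 0.0847, limma adjusted p = 1.25e-05 by Benjamini-Hochberg over all genes tested). It was lower in 3 of 3 shMMP9 libraries than in every shControl library. Of the 10 melanoma cell markers 6 were tested, of which 3 rose and 2 fell, against 25% and 32.5% of all genes tested. SOX10, S100B and CSPG4 rose, and MITF and MCAM fell. The neural crest factor SOX10 averaged 785 ± 40.6 in shMMP9 and 378 ± 18.4 in shControl, and MITF, the master regulator of melanocytes, 27.7 ± 0.876 in shMMP9 and 35.5 ± 2.48 in shControl. The surface protein gene MCAM averaged 333 ± 4.88 in shMMP9 and 410 ± 9.87 in shControl, and the melanosome gene PMEL stood at 1.76 ± 0.274 in shMMP9 and 1.70 ± 0.186 in shControl and did not pass the test. TYR and DCT were not analysed here.

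The sequence used against MMP9 is printed because every comparison rests on it. Its capitals mark the bases that would pair with bases 2 to 8, counted from the 5′ end, of the reverse complement of the target.

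hairpin target: cattcagggagacGCCCATTt

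The target is coding sequence of exon 4 (of 13) of MMP9, at chr20:46010992-46011012 on the plus strand of GRCh38 (GENCODE release 29). It was found whole in 1 annotated transcript, that of MMP9. The longest run of it in any transcript of MME was 8 bases, and over the 10 ectoenzyme genes the longest runs were 7 to 9 bases. The 7 capital bases occurred in 6 of 18 annotated transcripts of MME, in 4 of 5 of NT5E, in 2 of 5 of LNPEP, in 2 of 9 of ENPP1 and in none of the other 6 genes, against 9.74% of 83129 protein-coding transcripts. Of the genes with a match MME was lower in shMMP9, NT5E and LNPEP were higher and ENPP1 did not pass the threshold. A match of letters is a description and not a site of action.

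Of the 9 ectoenzyme genes, 4 were lower in shMMP9 (MME, FAP, CPM and DPP4), 3 were higher (ANPEP, NT5E and LNPEP) and 2 (ECE1 and ENPP1) did not pass the threshold of an adjusted p under 0.05. Over all 17194 genes tested 57.5% passed, 25% higher and 32.5% lower, so 7 of 9 is given beside that share with nothing read from it. The split of all genes depends on the scaling, with 4304 higher and 5584 lower here, 4949 and 4946 with median-of-ratios scaling, and 4988 and 4898 with total-read scaling. The groups did not overlap for the same 7 genes, against 62.7% of all genes tested, 27.6% with shMMP9 higher and 35.1% with shMMP9 lower. At a change of at least 2-fold on this scale 0 ectoenzyme genes were higher and 2, MME and FAP, were lower, against 3.22% and 4.96% of all genes tested. The median log2 fold change of the 9 genes was 0.01, against -0.05 over all genes tested. Neprilysin stood far outside the range of the other 8 genes, whose log2 fold changes lay between -1.71 and 0.49.

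**Figure D1:**
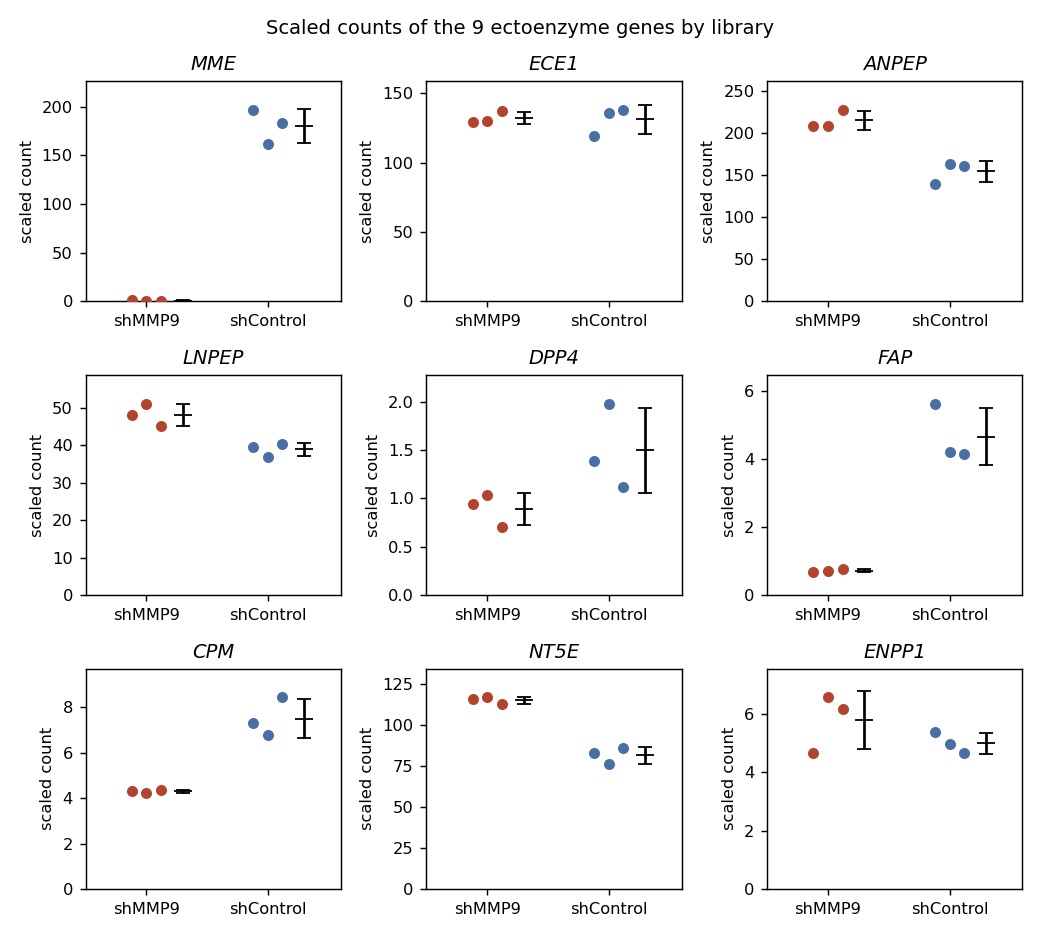
Scaled counts (vertical axes, each from 0) of 9 ectoenzyme genes in shMMP9 libraries (left) and shControl libraries (right); points are libraries 1 to 3 and bars the mean and SD of each group. MME lies below 1 in the 3 shMMP9 libraries and at 162 or more in the shControl libraries, while ECE1 overlaps between the groups.

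MME (ENSG00000196549.10, chr3:155024124-155183729, plus strand, GRCh38) encodes neprilysin. Its scaled count was 0.94, 0.634 and 0.776 in shMMP9 replicates 1 to 3, against 197, 162 and 183 in shControl replicates 1 to 3. All 3 shMMP9 libraries were low, on few reads, and the 3 shControl libraries lay close together, with no overlap. These values came from 28, 16 and 21 estimated reads in shMMP9 libraries, against 5523, 4995 and 4893 in shControl libraries. The means were 0.783 ± 0.153 in shMMP9 and 181 ± 17.3 in shControl (SD, n = 3 each), a ratio of 0.00434 of shMMP9 over shControl. The log2 fold change was -6.67 (SE 0.0939). MME was chosen for this change, so its rank of 2 from the lowest of the 17194 genes tested is a description. Genes with no reads in a library are not in that ranking. The log2 fold change depends on the pseudocount because the shMMP9 level is low. It was -7.46 for a pseudocount of 0.25, -5.27 for one of 4 and -7.82 with limma-voom. In bulk RNA, fewer cells that express a gene and less of its RNA per cell cannot be told apart.

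The annotation places the antisense gene MME-AS1 inside MME on the opposite strand, and the strand setting of the counting is not given in the sources used here. MME-AS1 was not analysed here. No tested gene had its start within 500 kilobases of MME, so the chromosome around it gives no comparison.

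ECE1 (chr1:21217247-21345572, minus strand) encodes endothelin-converting enzyme 1, a relative of neprilysin that makes active endothelin from its precursor. Its scaled count was 129, 130 and 137 in shMMP9 libraries, against 119, 136 and 138 in shControl libraries. The groups overlapped, with the lowest value in shControl replicate 1. The log2 fold change was 0.01, with a 95% interval of -0.12 to 0.14, and -0.06 without shControl replicate 1. PHEX, a relative of neprilysin in bone mineral metabolism, was the 1 tested gene of the 4 other family members looked for, at 3.39 ± 0.290 in shMMP9 and 2.93 ± 0.298 in shControl, and it did not pass the test (log2 fold change 0.16, adjusted p = 0.286, limma).

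Among the ectoenzymes, the aminopeptidase genes ANPEP and LNPEP were higher in shMMP9. ANPEP (chr15:89784889-89815401, minus strand) encodes aminopeptidase N, the myeloid antigen CD13, which removes neutral residues from peptide ends. It stood at 209, 209 and 228 in shMMP9 libraries, against 140, 163 and 161 in shControl libraries. Every shMMP9 library was above every shControl library, and the log2 fold change was 0.48 (SE 0.0624). LNPEP (chr5:96935394-97037515, plus strand) encodes insulin-regulated aminopeptidase, which cleaves oxytocin and vasopressin. It stood at 48.2, 51.2 and 45.1 in shMMP9 libraries, against 39.6, 36.9 and 40.3 in shControl libraries, again without overlap, with a log2 fold change of 0.30 (SE 0.0633). The start of LNPEP is overlapped by AC009126.1, an antisense gene with a log2 fold change of -0.10.

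Other aminopeptidases and surface exopeptidases did not follow in 1 direction. Of 13 tested genes of that list 3 rose and 6 fell, against 25% and 32.5% of all genes tested. Their median log2 fold change was -0.25, and with median-of-ratios or total-read scaling 6 rose and 6 fell. The aminopeptidase gene C9orf3 rose, at 28.7 ± 1.66 in shMMP9 and 16.2 ± 0.616 in shControl (log2 fold change 0.79, adjusted p = 8.56e-07, limma). TRHDE, which encodes the enzyme that degrades thyrotropin-releasing hormone, fell, at 36.1 ± 0.673 in shMMP9 and 54.7 ± 2.02 in shControl (log2 fold change -0.58, adjusted p = 1.08e-06). LTA4H, the leukotriene A4 hydrolase, had a log2 fold change of -0.47 (adjusted p = 5.37e-06). GGT1, a gamma-glutamyltransferase with close homologues that could share reads, had one of -1.42 (adjusted p = 2.25e-06), with -0.75 for a pseudocount of 4 and -2.08 with limma-voom, and is uncertain.

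DPP4 and FAP are close homologues that lie 96142 bases apart on chromosome 2, both on the minus strand. FAP (chr2:162170684-162245151) encodes fibroblast activation protein, a prolyl peptidase best known from tumour stroma. It stood at 0.672, 0.714 and 0.772 in shMMP9 libraries, against 5.62, 4.19 and 4.14 in shControl libraries. The groups were apart, on 20, 18 and 20.9 estimated reads in shMMP9 libraries and 157.6, 128.8 and 111 in shControl libraries. The means gave a ratio of 0.155 of shMMP9 over shControl and the log2 fold change was -1.71 (SE 0.135), with -2.33 for a pseudocount of 0.25, -0.87 for one of 4 and -2.65 with limma-voom.

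DPP4 (chr2:161992241-162074542) encodes dipeptidyl peptidase 4, the antigen CD26, which clips incretins and chemokines. It stood at 0.94, 1.03 and 0.702 in shMMP9 libraries, against 1.39, 1.98 and 1.12 in shControl libraries, on 19 to 28 and 30 to 61 estimated reads. The lowest shControl library was just above the highest shMMP9 library. The log2 fold change of -0.39 (SE 0.149) no longer passed the threshold without shMMP9 replicate 1 (-0.41), without shMMP9 replicate 3 (-0.32) or without shControl replicate 2 (-0.26), nor with median-of-ratios scaling (-0.36), total-read scaling (-0.36), limma-voom (-0.73) or a threshold of 0.01.

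Of 3 other tested genes near DPP4, the pseudogene AHCTF1P1 did not pass the test (log2 fold change -0.21, limma adjusted p = 0.311). IFIH1, a sensor of viral RNA, and GCA, which encodes grancalcin, also fell. All were chosen after their values were seen, and the log2 fold changes of IFIH1 and GCA were -0.78 (adjusted p = 8.5e-05, limma) and -0.56 (adjusted p = 0.00139). Over all genes tested 32.5% fell. For chromosome 2 as a whole the median log2 fold change was 0.01, over genes with a mean scaled count of at least 5. FAP, DPP4 and AHCTF1P1 lie under that level, so the median does not cover them. Of 11 tested prolyl and dipeptidyl peptidases other than DPP4 and FAP, 4 rose and 5 fell, against 25% and 32.5% of all genes tested. PRCP, a lysosomal prolylcarboxypeptidase, had a log2 fold change of -0.54 (adjusted p = 3.95e-06), the aminopeptidase gene XPNPEP3 -0.54 (adjusted p = 2.29e-05), the lysosomal DPP7 -0.38 (adjusted p = 9.93e-05) and the cytosolic DPP8 0.35 (adjusted p = 0.000231).

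CPM (chr12:68842197-68971570, minus strand) encodes carboxypeptidase M, a lipid-anchored enzyme that removes basic residues from the ends of kinins and anaphylatoxins. Its scaled count was 4.30, 4.24 and 4.36 in shMMP9 libraries, against 7.31, 6.76 and 8.44 in shControl libraries. The shMMP9 libraries were almost equal and all below the shControl libraries, and the log2 fold change was -0.68 (SE 0.113). The end of CPM overlaps MDM2, a p53 regulator transcribed from the opposite strand, whose log2 fold change was 0.50, and the pseudogene AC025423.2 (0.49). AC025423.4, on the same strand, also reaches the end of CPM. Without the strand setting of the counting, reads from the shared stretch cannot be told apart.

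Among other carboxypeptidases and angiotensin-converting enzymes 11 genes were tested, of which 3 rose and 5 fell, against 25% and 32.5% of all genes tested. CPA4, a secreted carboxypeptidase, fell to 16.9 ± 1.02 in shMMP9, against 154 ± 4.53 in shControl (log2 fold change -3.12, adjusted p = 3.38e-13, limma). AEBP1, a matrix protein with a carboxypeptidase-like domain, fell to 68.3 ± 0.710 in shMMP9, against 256 ± 24.3 in shControl (log2 fold change -1.89, adjusted p = 3.19e-11). CPE, the carboxypeptidase of prohormone processing, rose to 28 ± 0.637 in shMMP9, against 14.1 ± 0.996 in shControl (log2 fold change 0.94, adjusted p = 1.93e-07). CPVL had a log2 fold change of -1.27 (adjusted p = 9.05e-07).

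The nucleotide-cleaving ectoenzymes work in sequence on extracellular ATP. ENPP1 cleaves ATP to AMP and pyrophosphate, and NT5E, the ecto-5′-nucleotidase CD73, turns AMP into adenosine, which restrains immune cells in tumours. NT5E (chr6:85449584-85495791, plus strand) stood at 116, 117 and 113 in shMMP9 libraries, against 82.8, 76.1 and 86.2 in shControl libraries. The groups were well apart and the log2 fold change was 0.49 (SE 0.0539). ENPP1 (chr6:131808016-131895155, plus strand) stood at 4.67, 6.58 and 6.17 in shMMP9 libraries, against 5.38, 4.97 and 4.67 in shControl libraries. These groups overlapped, with a log2 fold change of 0.17 and a 95% interval of -0.11 to 0.45. It was 0.30 without shMMP9 replicate 1 and 0.09 without shMMP9 replicate 2.

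Among 20 other tested genes of extracellular nucleotides, pyrophosphate and adenosine, 5 rose and 11 fell, at a median log2 fold change of -0.35. Over all genes tested 25% rose and 32.5% fell. ANKH, a membrane protein needed for pyrophosphate outside the cell, rose to 310 ± 8.07 in shMMP9, against 80.9 ± 2.00 in shControl (log2 fold change 1.92, adjusted p = 2e-12, limma). ADA, the deaminase that removes adenosine, fell to 8.57 ± 0.950 in shMMP9, against 28.3 ± 0.671 in shControl (log2 fold change -1.62, adjusted p = 4.49e-09). The nucleoside transporter gene SLC29A2 had a log2 fold change of -1.15 (adjusted p = 9.4e-08) and the ATP-gated channel gene P2RX4 one of -1.35 (adjusted p = 8.05e-07), with -0.69 for a pseudocount of 4 and -2.02 with limma-voom. Chosen after their values were seen, ENTPD1, which encodes the ATP-cleaving ectoenzyme CD39, stood at 6.61 ± 0.711 in shMMP9 and 10.6 ± 0.372 in shControl (log2 fold change -0.62, adjusted p = 0.000213), and the adenosine receptor gene ADORA2B at 17.9 ± 0.307 in shMMP9 and 24.9 ± 2.02 in shControl (log2 fold change -0.45, adjusted p = 0.000209). Others chosen in that way went both ways: ENPP2 (log2 fold change 0.82, limma adjusted p = 0.000434) and BST1 (0.48, adjusted p = 0.00133) rose and ENPP4 (-0.95, adjusted p = 2.45e-05) fell.

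**Figure D2:**
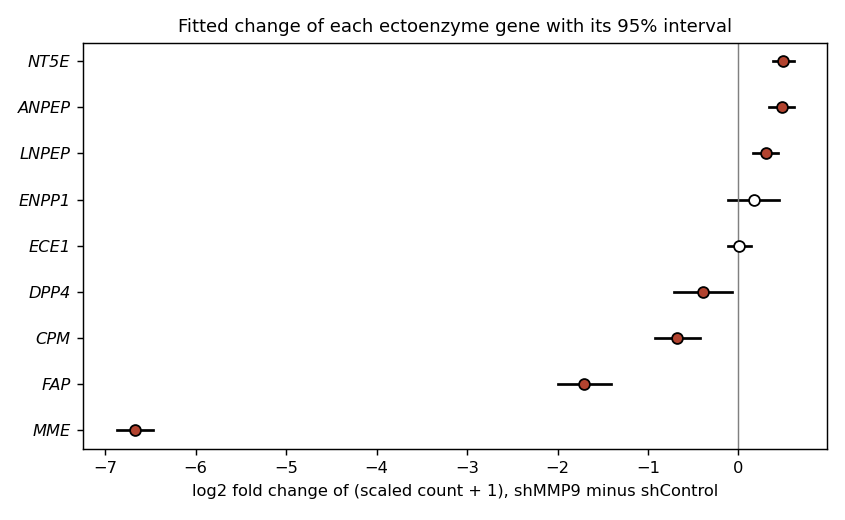
Log2 fold change of (scaled count + 1), shMMP9 minus shControl (horizontal axis), of 9 ectoenzyme genes, with lines for the 95% interval; filled points passed the threshold of an adjusted p under 0.05 over all genes tested. MME lies at -6.67, the other 8 genes between -1.71 and 0.49, and the intervals of ECE1 and ENPP1 include 0.

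Levels can be compared between these genes only after correction for length, so estimated reads were divided by the length in kilobases of the longest annotated transcript and expressed per 1000000 listed reads. On this scale MME averaged 0.161 ± 0.0311 in shMMP9 and 35.5 ± 3.71 in shControl (SD, n = 3 each), above 8.5% of listed genes in shMMP9 and above 89.6% in shControl. In shMMP9 the order from high to low was ANPEP (67.5), NT5E (33.9), ECE1 (29.8), LNPEP (4.35), ENPP1 (0.899), CPM (0.744), FAP (0.298), DPP4 (0.263) and MME (0.161). In shControl it was ANPEP (46.5), MME (35.5), ECE1 (28.4), NT5E (23.1), LNPEP (3.38), FAP (1.85), CPM (1.25), ENPP1 (0.744) and DPP4 (0.424). MME was last in shMMP9 and stood among ANPEP, ECE1 and NT5E in shControl. Libraries of neighbouring genes in the order overlapped for ENPP1 with CPM and for FAP with DPP4 in shMMP9, and for no neighbouring pair in shControl.

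Added over the 9 genes, the length-corrected level was 138 ± 3.89 in shMMP9 and 141 ± 3.86 in shControl, with overlapping libraries on this scale. The scale is set by the listed reads and not by the upper quartile used for the scaled counts. ECE1, for example, had a log2 fold change of 0.01 with the upper quartile and 0.07 with total-read scaling. The sums were not repeated with the upper quartile, and differences of this size between the groups depend on the scaling. MME made up 0.117 ± 0.0238% of that sum in shMMP9 and 25.2 ± 2.61% in shControl. ANPEP made up 48.9 ± 1.18% in shMMP9 and 32.9 ± 2.35% in shControl, and NT5E 24.6 ± 1.02% in shMMP9 and 16.3 ± 0.801% in shControl. Such shares also grow because MME is nearly absent from the shMMP9 sum, so they overstate the change of ANPEP and NT5E themselves. Without MME, the sum of the other 8 genes was 138 ± 3.90 in shMMP9 and 106 ± 4.76 in shControl. These sums describe the transcripts of chosen genes and carry no test.

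**Figure D3:**
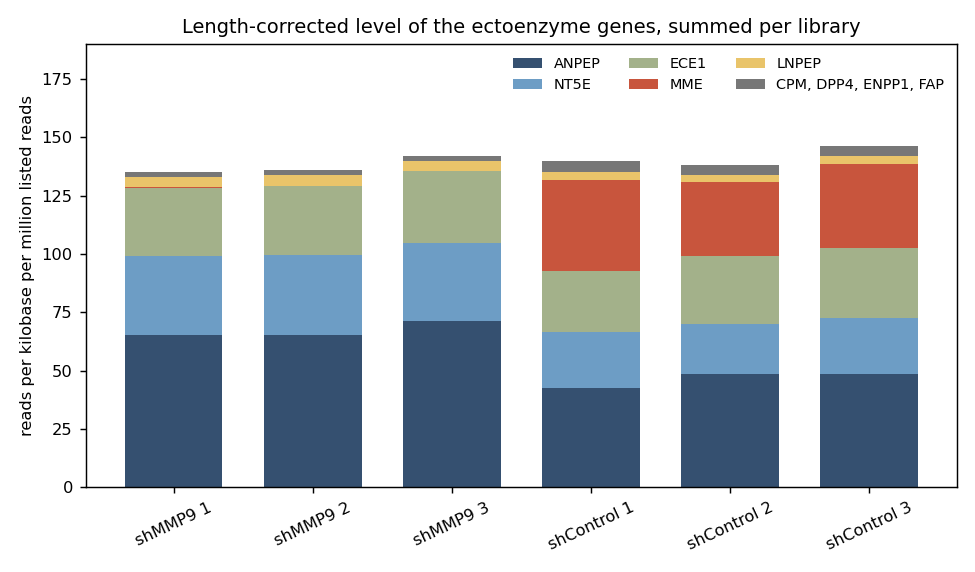
Length-corrected level (reads per kilobase per 1000000 listed reads, vertical axis) of the ectoenzyme genes stacked for each of the 3 shMMP9 and 3 shControl libraries, in the colours of the legend. The total is 135 to 142 in shMMP9 and 138 to 146 in shControl, and the MME layer is 0.0955 to 0.142% of it in shMMP9 and 22.9 to 28.0% in shControl.

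Peptides cut by these enzymes and their receptors were followed as 2 lists. Of 11 tested ligand genes 4 rose and 6 fell, and of 15 tested receptor genes 5 rose and 3 fell. The shares over all genes tested were 25% and 32.5%. EDN1 encodes the precursor from which ECE1 makes active endothelin 1, the peptide that neprilysin inactivates. It fell to 0.284 ± 0.161 in shMMP9, against 8.30 ± 1.06 in shControl (log2 fold change -2.86, adjusted p = 1.42e-09, limma), with -4.03 for a pseudocount of 0.25, -1.52 for one of 4 and -4.86 with limma-voom. EDNRB, the endothelin receptor of melanocytes and the neural crest, rose to 77.9 ± 2.83 in shMMP9, against 14.9 ± 0.0798 in shControl (log2 fold change 2.31, adjusted p = 3.14e-12). The other endothelin receptor gene, EDNRA, named after its values were seen, had a log2 fold change of 0.19 and did not pass the test (adjusted p = 0.19). On chromosome 13, which holds EDNRB, the median log2 fold change was 0.28, against -0.02 over all chromosomes, for genes with a mean scaled count of at least 5. Within the endothelin route the ligand was lower, the converting enzyme ECE1 overlapped between the groups and the receptor EDNRB was higher.

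Adrenomedullin (ADM), a vasodilator peptide, had a log2 fold change of -1.75 (adjusted p = 1.88e-09) and the growth factor FGF2 one of -0.76 (adjusted p = 1.2e-06). NMB, the neuromedin B precursor, rose to 24.1 ± 0.932 in shMMP9, against 14.8 ± 0.247 in shControl (log2 fold change 0.67, adjusted p = 3.74e-06). The neurotensin receptor gene NTSR1 had a log2 fold change of 3.42 (adjusted p = 6.04e-11; 2.57 for a pseudocount of 4), the opioid receptor gene OPRD1 one of 1.49 (adjusted p = 1.35e-10) and RAMP1, a partner of the calcitonin receptor-like receptor, one of 1.47 (adjusted p = 4.99e-08). The receptor genes that fell, named after their values were seen and at low levels, were NPR3 (log2 fold change -1.77, limma adjusted p = 4.1e-07), VIPR1 (-1.36, adjusted p = 9.02e-06) and OXTR (-0.52, adjusted p = 0.0095). TAC1, which encodes the neprilysin substrate substance P, was chosen after its values were seen and stood at 5.86 ± 0.312 in shMMP9 and 2.08 ± 0.494 in shControl (log2 fold change 1.17, adjusted p = 7.43e-06). The natriuretic peptide genes NPPB (log2 fold change -1.35, limma adjusted p = 4.48e-06) and NPPC (1.04, adjusted p = 0.000278), chosen in the same way, went in opposite directions at low levels. APP, the precursor of the amyloid-beta peptides, also chosen after its values were seen, stood at 424 ± 2.68 in shMMP9 and 416 ± 9.20 in shControl and did not pass the test (log2 fold change 0.03, adjusted p = 0.634).

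**Figure D4:**
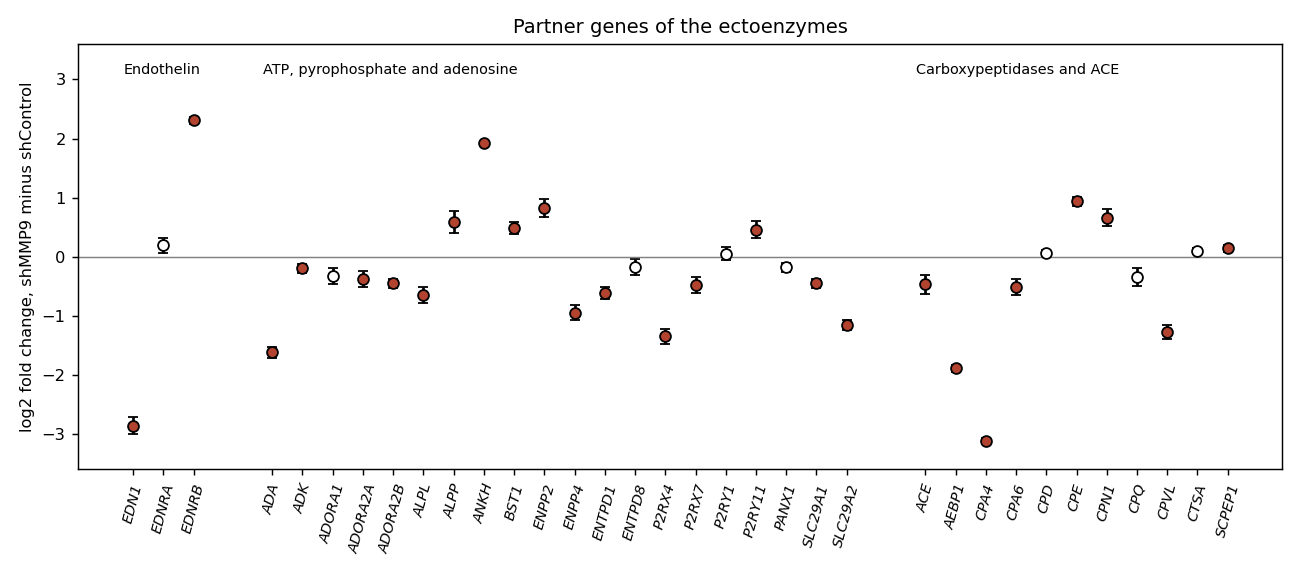
Log2 fold change of (scaled count + 1), shMMP9 minus shControl (vertical axis), of the endothelin genes and of every tested gene of the nucleotide list and of the carboxypeptidase list, with bars for the SE; filled points passed the threshold of an adjusted p under 0.05. EDN1 (-2.86) and EDNRB (2.31) lie on opposite sides of 0, as do CPA4 (-3.12) and CPE (0.94).

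A list of surface proteases of other families and their partners had 8 of 14 tested genes rising and 4 falling. The median log2 fold change of the list was 0.19, and over all genes tested 25% rose and 32.5% fell. The list includes NCSTN, a non-catalytic gamma-secretase subunit, among those that rose and PLAUR, the urokinase receptor, among those that fell. FURIN, a proprotein convertase, rose to 252 ± 6.61 in shMMP9, against 135 ± 13 in shControl (log2 fold change 0.90, adjusted p = 6.07e-08, limma). The sheddase gene ADAM10 had a log2 fold change of 0.50 (adjusted p = 1.54e-06), the beta-secretase gene BACE1 one of 0.47 (adjusted p = 2.53e-06) and ADAM9 one of -0.48 (adjusted p = 2.16e-06).

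MME, ANPEP and FAP are also surface markers of fibroblasts and MME and ANPEP of leukocytes. The summed scaled count of 8 fibroblast markers was 27.1 to 30.0 in shMMP9 libraries and 46.4 to 52.9 in shControl libraries, and of 5 tested members 1 rose and 4 fell. COL1A1 stood at 3.15 ± 0.496 in shMMP9 and 18.4 ± 1.85 in shControl, and LUM, PDGFRB and DCN also fell. PDGFRA rose, at 5.46 ± 0.694 in shMMP9 and 2.16 ± 0.681 in shControl. Of 8 leukocyte markers LYZ and CD14 had a row, with a sum of 7.24 to 7.69 in shMMP9 libraries and 2.46 to 2.91 in shControl libraries, and PTPRC was not analysed here. The difference of this sum lies mostly in 1 gene, LYZ, which rose, at 6.83 ± 0.103 in shMMP9 and 2.20 ± 0.0429 in shControl. CD14 stood at 0.662 ± 0.335 in shMMP9 and 0.450 ± 0.272 in shControl and did not pass the test (adjusted p = 0.368, limma). The endothelial sum was 22.1 to 25.7 in shMMP9 and 55.9 to 64.8 in shControl, with 2 of 6 tested members rising and 2 falling. The difference of that sum lies in TIE1, at 4.56 ± 0.617 in shMMP9 and 49.9 ± 3.41 in shControl, while KDR stood at 16.1 ± 0.537 in shMMP9 and 6.44 ± 0.414 in shControl and PECAM1 at 2.05 ± 0.610 in shMMP9 and 1.19 ± 0.346 in shControl. The keratinocyte sum was 127 to 136 in shMMP9 and 70.0 to 81.6 in shControl, with 2 of 2 rising. Beside these counts stand 25% rising and 32.5% falling over all genes tested. The part of these markers in the ectoenzyme values was not tested.

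The genes whose profile over the 6 libraries lay closest to that of MME were sought among 11474 genes at a mean scaled count of 5 or more, by the Euclidean distance of log2 values centred on each gene's own mean. BASP1, which encodes a membrane-bound signalling protein, was nearest at a distance of 0.22. It stood at 0.168, 0.0793 and 0.185 in shMMP9 libraries and 116 in each shControl library. In shMMP9 libraries 1 read is a scaled count of 0.03358 to 0.03965, so BASP1 rests there on a few reads. Its distance to MME therefore depends on the pseudocount. Next came SPANXA1 (1.99), SPANXA2 (2.26), KRT81 (2.48) and IL6 (2.57). SPANXA1 and SPANXA2 are near-identical copies that share reads, and KRT81 shares sequence with neighbouring keratins, so their values are uncertain. These genes lie on chromosomes 5, X, 12 and 7, none on the chromosome of MME. Among the ectoenzymes FAP was nearest to MME, at 6.08. The measure ranks by the size of the difference between the groups, which MME was chosen for, so it is a description.

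The 9 ectoenzyme genes lie on 7 chromosomes, none of them 13 or 18, whose genes had medians of 0.28 and -0.45. For the 7 chromosomes the medians lay between -0.03 and 0.01. Counted once each, 54 tested genes had their start within 500 kilobases of an ectoenzyme gene, of which 10 rose and 26 fell, against 25% and 32.5% of all genes tested under the upper-quartile scaling. The 26 include FAP and DPP4, each a neighbour of the other, and these neighbour counts were not repeated under the scalings that even out the split of all genes. Near ECE1, which itself did not pass the threshold, 8 of 9 tested genes fell. CTGF, which encodes a matricellular protein, lies next to ENPP1, stood at 47.4 ± 0.904 in shMMP9 and 171 ± 2.64 in shControl, and was named after its values were seen.

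Upstream sequence of 3 genes is printed so that the gene that was lowest relative to shControl (MME) can be set beside another lower gene (CPM) and a higher one (ANPEP). Each is the part of the 250 bases before the first start listed in RefSeq (GRCh38.p14) that holds no annotated exon. Capitals mark GGGCGG, the GC box, on either strand, and in MME also GGAATG, the TEAD motif, near the left end. Matches that overlap run together.

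MME, chr3:155079422-155079646, plus strand: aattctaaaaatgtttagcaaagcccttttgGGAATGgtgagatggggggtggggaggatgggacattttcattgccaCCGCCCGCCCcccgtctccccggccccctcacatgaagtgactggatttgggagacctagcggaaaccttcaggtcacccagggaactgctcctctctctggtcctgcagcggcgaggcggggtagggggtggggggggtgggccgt
CPM, chr12:68933203-68933449, minus strand: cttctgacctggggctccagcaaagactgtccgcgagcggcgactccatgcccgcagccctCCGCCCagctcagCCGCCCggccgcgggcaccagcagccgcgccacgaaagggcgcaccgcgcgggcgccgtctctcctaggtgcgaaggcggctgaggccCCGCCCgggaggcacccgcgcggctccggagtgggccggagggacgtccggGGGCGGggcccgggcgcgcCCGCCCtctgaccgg
ANPEP, chr15:89814865-89815102, minus strand: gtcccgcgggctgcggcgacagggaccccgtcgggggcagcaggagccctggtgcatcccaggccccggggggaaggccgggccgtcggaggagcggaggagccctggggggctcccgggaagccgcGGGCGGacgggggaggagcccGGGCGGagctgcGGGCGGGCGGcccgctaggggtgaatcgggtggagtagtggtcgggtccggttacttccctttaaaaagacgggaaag

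RefSeq windows were at hand for 8 of the 9 genes, 18 windows in all, with FAP as the exception. GGAATG on either strand was found in 1 of the 18 windows, that of MME, 219 bases before the start, against 11.9% of 35116 windows of the same length over all genes. GGGCGG was found in 13 of 18 windows, against 42.6% of all windows. Some windows of CPM and of MME overlap and count the same match again. Most of the 18 also held more G and C than the median of all windows, so nothing is read from that count. TGANTCA, the AP-1 motif with N for any base, was found in 0 of 18, against 6.57%, and TGACGTCA, the cyclic AMP response element, in 0 of 18, against 1.65%. The 250 bases before the first start held 63.2% G and C in MME, 78.8% in CPM and 74% in ANPEP, against a median of 58% over all windows. MME has other annotated starts, upstream and downstream, and which start A375 cells use was not analysed here.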

How the data were processed

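Total RNA from 6 A375 libraries was sequenced, with groups and replicate numbers taken from the labels. STAR 2.6.1d, Partek and the hg38 build were used, per the submitters' processing notes. How reads were counted (annotation, strand, filter) is not given in the sources used here. By name the table holds counts, but the deposited values read as log2(scaled count + 1). This was taken from the values, whose linear 75th percentile was 45.35 to 45.36 in all libraries, and no label or header states the step. Steps in the linear values gave estimated reads, 63.2 to 67.4% of which were whole within 0.01 reads. All listed values were above 0 in all libraries, and genes with no reads in a library could not be assessed. A further limit is that 23 rows carry a date in place of a symbol and were given no name.

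With limma 3.58.1, a linear model was fitted (R 4.3.3; moderated variances with a mean trend) on the deposited log2 values of 17194 genes that had 10 reads at the median depth in 3 libraries (1345 removed), with Benjamini-Hochberg adjustment over all of them and a threshold of 0.05. The fit was also run on simulated counts in which few genes changed, all of them well expressed. That setting differs from these data, where most genes passed, so the run says nothing about the calls given here. Gene coordinates, lengths and overlaps came from GENCODE release 29, and figures from matplotlib 3.10.9. The ectoenzyme genes, the 8 pathway lists and the 5 marker lists were chosen with earlier results of these data known. Beside the ectoenzymes and MMP9, the rule names up to 4 genes of each pathway list with the smallest adjusted p, genes that overlap an ectoenzyme gene, and the 5 nearest profiles to MME, while examples from the marker lists and other genes were picked with their values known. AOPEP was matched under its older name C9orf3. Alternatives were a replicate block, each library left out, other scalings, pseudocounts of 0.25 and 4, no filter, limma-voom and a threshold of 0.01.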

Additional observations from a re-analysis of the deposited data

How the results depend on the processing

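MME, FAP, CPM, ANPEP, NT5E and LNPEP kept their direction and their side of the threshold under every alternative run. These refits use the libraries in which the change of MME was already known, so they describe the processing and add no support. MME ranged from -6.74 to -6.61 on the log2 scale when 1 library was left out. DPP4 crossed the threshold under 7 of 14 alternatives, so 6 or 7 of the 9 ectoenzyme genes passed. ECE1 and ENPP1 did not pass under any. The number of all genes passing, 9888, was 8676 to 10225 with 1 library left out and 7807 at a threshold of 0.01, and the total calls of the 8 pathway lists stayed within 1.5 times their main counts. Counts in 1 direction moved further in 3 lists. Aminopeptidases that rose numbered 3, and 6 with median-of-ratios or total-read scaling. Nucleotide and adenosine genes that rose numbered 5, and 3 without shMMP9 replicate 3 or at a threshold of 0.01. Prolyl peptidases that rose numbered 4, and 2 at a threshold of 0.01. The split of all genes passing was 4949 higher and 4946 lower with median-of-ratios scaling and 4988 higher and 4898 lower with total-read scaling. Same-numbered libraries did not deviate together, with correlations of 0.113, -0.248 and 0.013 over 11490 genes, and not every library correlated best with its own number, so the numbers were not taken as pairs. With the replicate number as a block 9697 genes and 7 ectoenzyme genes passed. DPP4, FAP and MME rest on 16 to 28 reads per shMMP9 library, and changes of such genes depend on the pseudocount.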
